A study of Mus musculus with 12 samples.

Results

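The Toll-like receptor family is described here by 10 mouse genes, Tlr1, Tlr2, Tlr3, Tlr4, Tlr5, Tlr6, Tlr7, Tlr8, Tlr9 and Tlr13, taken by gene name from the 54532 genes of the table. All 10 were found, and 9 of them had enough counts to be tested. Tlr5 had too few. The cells were resident peritoneal macrophages of C57BL/6 mice, kept for 24 h in basic DMEM buffered with MOPS or HEPES, with or without LPS at 10 ng/ml for 2 h. LPS, or lipopolysaccharide, is a component of the outer membrane of Gram-negative bacteria. There were 12 RNA-seq libraries, 3 in each of 4 groups. The groups were MOPS with LPS, HEPES with LPS, MOPS without LPS and HEPES without LPS. The title of the study concerns extracellular acidity. The design text gives pH 6.8 and pH 7.4 and then the buffers, so pH 6.8 is taken to belong to MOPS and pH 7.4 to HEPES from word order alone, and buffer and pH cannot be told apart.

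Toll-like receptors are membrane proteins of innate immune cells that recognise conserved microbial molecules and signal through a cytoplasmic domain shared with the interleukin-1 receptors. Tlr1, Tlr2, Tlr4, Tlr5 and Tlr6 act mainly at the cell surface on lipids and proteins of microbes. Tlr3, Tlr7, Tlr8, Tlr9 and Tlr13 act in endosomes on nucleic acids. Tlr4 with its partner Ly96 is the receptor for LPS, and Tlr2 pairs with Tlr1 or Tlr6 to recognise lipoproteins.

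Library totals ran from 20114613 to 24734853 counts. All 10 macrophage markers looked for were detected in every group, and their summed level was 17351 to 19685 CPM in MOPS with LPS, 27312 to 29074 CPM in HEPES with LPS, 16719.8 to 16971 CPM in MOPS and 26002 to 27392 CPM in HEPES (CPM is the count of a gene scaled to a common library size with edgeR's TMM factors). Most of that sum was Lyz2. All 10 B cell markers were detected as well, at a summed 129.6 to 143 CPM in MOPS with LPS, 35.8 to 42.7 CPM in HEPES with LPS, 219.9 to 229 CPM in MOPS and 111 to 186 CPM in HEPES. Dendritic cell and small peritoneal macrophage markers summed to 509.8 to 553 CPM in MOPS with LPS, 639 to 711 CPM in HEPES with LPS, 363 to 420.3 CPM in MOPS and 419.6 to 488 CPM in HEPES. Granulocyte and mast cell markers summed to at most 27.4 CPM in any library, with Ly6g and Prg2 at 0 counts in all groups. T and NK cell markers summed to at most 2.17 CPM, with Ncr1 at 0 counts in all groups, and mesothelial, stromal and endothelial markers to at most 16.8 CPM. In bulk RNA, fewer cells of a type and less RNA per cell cannot be told apart. The labels do not say whether the libraries of a group came from separate animals or cultures, so a p-value reflects only how much these libraries differ, which may be technical.

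The sequences just upstream of Tlr2 and Tlr13 are shown because these are the members with the largest rise and the largest fall with LPS among the 9 tested. They come from RefSeq (build GRCm38.p6), which held an entry for 8 of the 10 members (Tlr4 and Tlr7 were not matched), and were trimmed to lie upstream of both the RefSeq and the GENCODE start. Capitals mark a match to a searched motif, and each line runs 5′ to 3′ on the strand of the gene. The Tlr2 stretch is chr3:83841768-83841858 on the minus strand and the Tlr13 stretch is chrX:106143025-106143203 on the plus strand.
Tlr2: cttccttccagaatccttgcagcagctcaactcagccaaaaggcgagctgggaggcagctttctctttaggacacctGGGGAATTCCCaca
Tlr13: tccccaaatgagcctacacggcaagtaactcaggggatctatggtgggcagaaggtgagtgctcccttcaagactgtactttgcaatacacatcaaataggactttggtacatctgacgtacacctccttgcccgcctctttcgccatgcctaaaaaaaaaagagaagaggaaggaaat
Searched on both strands over 250 bases upstream of each RefSeq start were the kappaB motif of NF-kappaB, the interferon-stimulated response element as GAAA followed 2 bases later by GAAA, AP-1 as TGANTCA and the cAMP response element as TGACGTCA. The run GGGGAATTCCC of Tlr2 holds overlapping kappaB matches on both strands and ends 4 bases upstream of the GENCODE start. The Tlr13 window held no match to any of these motifs. Among the 32851 promoter windows of the same length, 3.90% held the kappaB motif, 2.98% the interferon-stimulated element, 6.75% AP-1 and 1.55% the cAMP response element. Among other members, a kappaB match lay in the Tlr3 window, interferon-stimulated element matches in a Tlr6 window and an AP-1 match in the Tlr9 window. These windows were not trimmed. The Tlr3 window and that Tlr6 window lie inside the gene, downstream of the GENCODE start, while the Tlr9 window lies upstream of it.

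Levels are given per length, as CPM divided by the gene length in kilobases, so that genes can be set side by side. Without LPS, transcripts of the endosomal receptors made up much of the family. In MOPS the order of mean levels was Tlr13 (89.3 ± 2.09 CPM per kilobase, SD, n = 3), Tlr2 (48.4 ± 4.26), Tlr7 (46.2 ± 1.803), Tlr8 (37.2 ± 1.964), Tlr6, Tlr4, Tlr1, Tlr3, Tlr9 and Tlr5. Tlr2 and Tlr7 overlapped there, and all other neighbours in that order were separated in all libraries. In HEPES the order was Tlr13 (82.1 ± 1.29 CPM per kilobase), Tlr2 (80.7 ± 4.72), Tlr7 (44.5 ± 2.16), Tlr8 (24.5 ± 1.10), Tlr4, Tlr6, Tlr1, Tlr3, Tlr9 and Tlr5. There the overlapping neighbours were Tlr13 with Tlr2 and Tlr6 with Tlr1.

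With LPS, Tlr2 stood far above the rest. In MOPS with LPS the order was Tlr2 (1338 ± 48.7 CPM per kilobase), Tlr7 (61.6 ± 2.55), Tlr13 (34.5 ± 2.88), Tlr8 (25.4 ± 1.23), Tlr4, Tlr1, Tlr6, Tlr3, Tlr9 and Tlr5, and the only neighbours to overlap were Tlr3 and Tlr9. In HEPES with LPS the order was Tlr2 (1675 ± 45.4 CPM per kilobase), Tlr7 (56.1 ± 2.22), Tlr8 (19.6 ± 1.11), Tlr13 (12.6 ± 1.40), Tlr4 (11.2 ± 0.749), Tlr1, Tlr6, Tlr3, Tlr9 and Tlr5, and the only neighbours to overlap were Tlr13 and Tlr4. Tlr2 alone made up 90.4% to 91.5% of the summed level of the 10 members in the libraries of MOPS with LPS, 93.8% to 94.4% in HEPES with LPS, 19.1% to 22.1% in MOPS and 30.3% to 32.6% in HEPES.

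**Figure D1:**
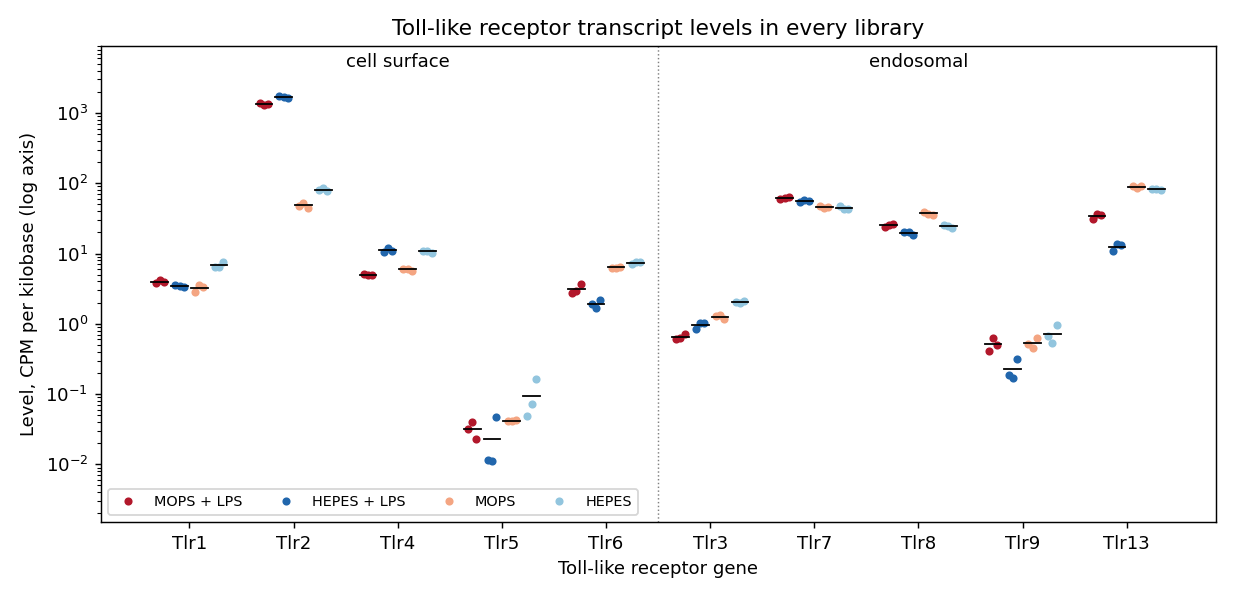
Level of each receptor gene in CPM per kilobase (log axis) in every library, with cell surface receptors on the left and endosomal receptors on the right. Points are libraries, black bars are means of 3 and colours are the 4 groups; Tlr2 with LPS lies between 1283 and 1724, above every other point.

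**Figure D2:**
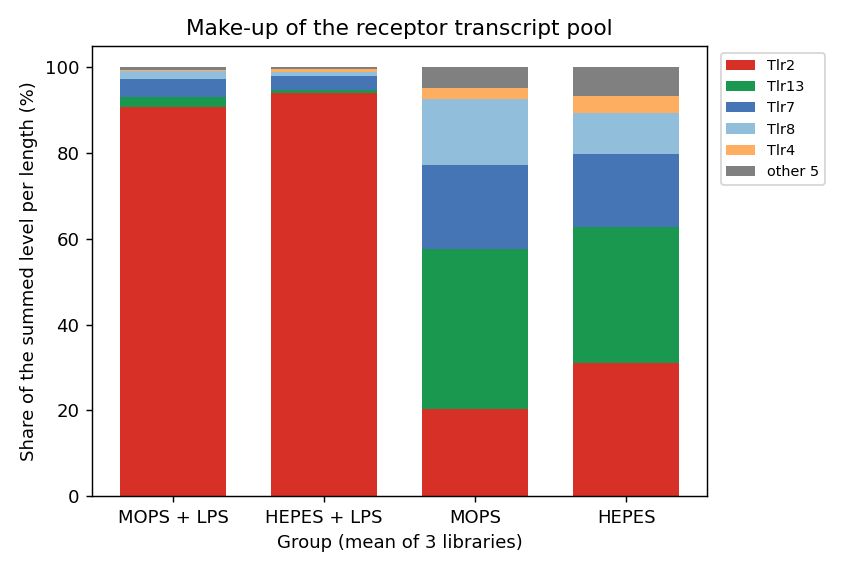
Share of each receptor gene in the summed level per length of the 10 members, from the means of 3 libraries per group (linear axis from 0). Tlr2 takes 90.9% of the bar for MOPS with LPS and 94.1% of that for HEPES with LPS, against 20.3% for MOPS and 31.1% for HEPES; Tlr13 takes 37.5% of the MOPS bar and 31.6% of the HEPES bar.

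The response to LPS was tested in each medium. Of the 9 members tested, 3 rose and 5 fell in MOPS, beside 69.0% of all 14506 tested genes called in either direction (34.1% higher and 34.9% lower). In HEPES 2 rose and 6 fell, beside 76.9% of all tested genes (35.6% higher and 41.2% lower). Calls were made at an adjusted p under 0.05 (edgeR's quasi-likelihood test with Benjamini-Hochberg adjustment over all tested genes). The median log2 change of the members was -0.26 in MOPS and -0.98 in HEPES, beside -0.03 and -0.08 for all tested genes. These shares depend on the scaling: with total counts in place of TMM the median of all genes was -0.55 in MOPS and -0.67 in HEPES, and genes called split into 2084 higher and 9506 lower in MOPS and 2502 higher and 9666 lower in HEPES, where TMM gave 4945 higher and 5062 lower in MOPS and 5168 higher and 5982 lower in HEPES. The comparisons of LPS and of media share libraries, so their values are given side by side.

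Tlr2, which senses bacterial lipoproteins, is ENSMUSG00000027995 on chromosome 3 from 83836272 to 83841767 (mm10). It had 1374, 1283 and 1358 CPM per kilobase in MOPS with LPS and 47.7, 53.0 and 44.5 CPM per kilobase in MOPS. In HEPES with LPS it had 1724, 1667 and 1635 CPM per kilobase, against 79.7, 85.8 and 76.5 CPM per kilobase in HEPES. Each of the 4 groups was separate from the others. The log2 change with LPS was 4.79 ± 0.059 in MOPS (27.6-fold, adjusted p = 4.04e-26, edgeR) and 4.38 ± 0.057 in HEPES (20.8-fold, adjusted p = 8.31e-26). With total counts as the scaling it was 4.27 in MOPS and 3.79 in HEPES. The rise in MOPS was larger than that in HEPES by 0.41 ± 0.072 on the log2 scale (adjusted p = 7.53e-05, edgeR interaction), while the level remained lower in MOPS than in HEPES both with LPS (-0.32 ± 0.050) and without it (-0.74 ± 0.052).

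Tlr4, the LPS receptor itself, is ENSMUSG00000039005 on chromosome 4 from 66827584 to 66930284. Its level was 5.06, 4.87 and 4.91 CPM per kilobase in MOPS with LPS and 10.5, 11.96 and 11.02 CPM per kilobase in HEPES with LPS. Without LPS it was 6.06, 6.02 and 5.71 CPM per kilobase in MOPS and 11.03, 10.9 and 10.2 CPM per kilobase in HEPES. The groups split by medium, with every MOPS library below every HEPES library. MOPS over HEPES gave a log2 difference of -1.17 ± 0.057 with LPS (adjusted p = 3.22e-17, edgeR) and -0.85 ± 0.053 without LPS (adjusted p = 1.36e-14). With LPS, Tlr4 fell in MOPS, with a log2 change of -0.26 ± 0.059 (adjusted p = 2.31e-04), or -0.78 with total counts as the scaling. In HEPES the change was 0.06 ± 0.052 (adjusted p = 0.301, approximate 95% interval -0.04 to 0.16), and it was -0.53 (adjusted p = 6.66e-11) with total counts as the scaling. Without HEPES with LPS replicate 10 it was 0.15 and called (adjusted p = 0.019). The response in MOPS less the response in HEPES was -0.32 ± 0.078 (adjusted p = 0.00138).

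Tlr1 and Tlr6, the partners of Tlr2, lie next to each other on chromosome 5. Tlr1 is ENSMUSG00000044827 from 64924679 to 64933563, and Tlr6 is ENSMUSG00000051498 from 64952031 to 64960097. Their longest transcripts were 71.2% identical over 2784 aligned positions and shared an unbroken run of 229 bases, while no other pair of members shared a run of more than 18 bases. How reads from the shared run were divided is not given in the sources used here, so their counts are less certain than those of the other members.

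Tlr1 had 3.84, 4.27 and 3.89 CPM per kilobase in MOPS with LPS and 3.56, 3.499 and 3.32 CPM per kilobase in HEPES with LPS. Without LPS it had 2.84, 3.58 and 3.38 CPM per kilobase in MOPS and 6.39, 6.49 and 7.69 CPM per kilobase in HEPES. The HEPES libraries without LPS stood above all others. LPS changed Tlr1 in opposite directions in the media, by 0.29 ± 0.097 in MOPS (adjusted p = 0.00907, edgeR) and by -0.98 ± 0.092 in HEPES (adjusted p = 3.95e-11), though with total counts as the scaling the values were -0.22 in MOPS (adjusted p = 0.0384) and -1.57 in HEPES. Leaving out MOPS replicate 1 (0.20, adjusted p = 0.088) also ended the call in MOPS, as did leaving out MOPS with LPS replicate 8 (0.24, adjusted p = 0.0598). The difference between these changes was 1.27 ± 0.13 (adjusted p = 5.45e-09). Between media, Tlr1 was at -1.06 ± 0.088 in MOPS over HEPES without LPS (adjusted p = 1.24e-11) and at 0.21 ± 0.10 with LPS (adjusted p = 0.0795, approximate 95% interval 0.01 to 0.41). The value with LPS was 0.30 and called with total counts as the scaling (adjusted p = 0.013), and it was 0.12 when MOPS with LPS replicate 8 was left out and 0.14 when HEPES with LPS replicate 12 was.

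Tlr6 had 2.79, 2.93 and 3.71 CPM per kilobase in MOPS with LPS, against 6.27, 6.29 and 6.43 CPM per kilobase in MOPS. In HEPES with LPS it had 1.88, 1.70 and 2.18 CPM per kilobase, against 7.17, 7.50 and 7.55 CPM per kilobase in HEPES. No LPS library reached an untreated one. Tlr6 fell with LPS by a log2 change of -1.014 ± 0.088 in MOPS and -1.95 ± 0.094 in HEPES (adjusted p = 9.59e-12 and 3.33e-18, edgeR), with a difference of 0.93 ± 0.13 between them (adjusted p = 1.07e-06). With total counts as the scaling the change in MOPS was -1.53. MOPS over HEPES it was higher with LPS (0.71 ± 0.11, adjusted p = 1.52e-06) and lower without LPS (-0.23 ± 0.076, adjusted p = 0.0144). Per length, the level of Tlr2 was 334 times that of Tlr1 in MOPS with LPS, 483 times in HEPES with LPS, 14.8 times in MOPS and 11.8 times in HEPES. It was 428 times that of Tlr6 in MOPS with LPS, 873 times in HEPES with LPS, 7.62 times in MOPS and 10.9 times in HEPES (geometric means over 3 libraries).

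Tlr5, the flagellin receptor, is ENSMUSG00000079164 on chromosome 1 from 182954788 to 182976044. It had 3, 4 and 2 counts in MOPS with LPS, 1, 1 and 4 counts in HEPES with LPS, 5, 6 and 5 counts in MOPS and 7, 10 and 21 counts in HEPES. It was near the limit of detection in all groups. Over the 3 libraries of a group this came to 9 counts in MOPS with LPS (exact 95% Poisson interval 4.12 to 17.1), 6 in HEPES with LPS (2.20 to 13.1), 16 in MOPS (9.15 to 26.0) and 38 in HEPES (26.9 to 52.2), intervals that cover counting error only. The other mouse family genes outside the 10 members, Tlr11 and Tlr12, had 0 to 6 counts in any library.

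Among the endosomal receptors, Tlr13 changed most with LPS. Tlr13, which in mice recognises a sequence of bacterial ribosomal RNA, is ENSMUSG00000033777 on chromosome X from 106143204 to 106160493. It had 31.4, 37.0 and 35.1 CPM per kilobase in MOPS with LPS and 90.1, 86.9 and 90.8 CPM per kilobase in MOPS. In HEPES with LPS it had 10.97, 13.6 and 13.1 CPM per kilobase, against 83.3, 82.3 and 80.7 CPM per kilobase in HEPES. Tlr13, at rest the most abundant family transcript in MOPS and overlapping Tlr2 in HEPES, was thus below Tlr7 in every LPS library. It fell with a log2 change of -1.37 ± 0.061 in MOPS (2.59-fold, adjusted p = 5.47e-13, edgeR) and -2.71 ± 0.067 in HEPES (6.54-fold, adjusted p = 4.14e-17). With total counts as the scaling the change was -1.88 in MOPS and -3.29 in HEPES. The fall was smaller in MOPS by 1.34 ± 0.089 (adjusted p = 1.92e-09), and Tlr13 was higher in MOPS than in HEPES with LPS by 1.46 ± 0.067 (2.75-fold, adjusted p = 2.59e-12).

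Without LPS, Tlr13 in MOPS over HEPES was at 0.12 ± 0.058 and was not called (adjusted p = 0.0973, edgeR), although no MOPS library overlapped a HEPES one. It was called by DESeq2 (0.14, adjusted p = 0.0291) and with only the 6 libraries compared (0.13, adjusted p = 0.00132), and it was called when MOPS with LPS replicate 7 (adjusted p = 0.0221), MOPS with LPS replicate 8 (adjusted p = 0.0429), or, among the HEPES libraries with LPS, replicate 10 (adjusted p = 0.0125) or 11 (adjusted p = 0.0459), was left out. In the authors' deposited table its log2 change there was 0.13 with an adjusted p of 1.51e-04.

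Tlr7, a receptor for single-stranded RNA and its breakdown products, and Tlr8 lie close together on chromosome X. Tlr7 is ENSMUSG00000044583 from 167304929 to 167330558, and Tlr8 is ENSMUSG00000040522 from 167242696 to 167264329. Tlr7 had 59.6, 60.8 and 64.5 CPM per kilobase in MOPS with LPS, against 48.2, 45.02 and 45.2 CPM per kilobase in MOPS. The HEPES libraries with LPS had 53.8, 58.2 and 56.3 CPM per kilobase, against 47.0, 43.4 and 43.1 CPM per kilobase in HEPES. As a ratio of the highest to the lowest library, its range was the narrowest of the 9 tested members. Its log2 change with LPS was 0.42 ± 0.043 in MOPS and 0.33 ± 0.043 in HEPES (adjusted p = 5.27e-10 and 3.71e-08, edgeR), but with total counts as the scaling it was -0.10 in MOPS and -0.25 in HEPES. The LPS changes differed by 0.08 ± 0.061 between media (adjusted p = 0.299, approximate 95% interval -0.04 to 0.20). This difference was 0.16 and called with total counts as the scaling (adjusted p = 0.0457), and it ranged from 0.0054 (without HEPES with LPS replicate 10) to 0.11 (without MOPS replicate 1) with a library left out. In MOPS over HEPES it was at 0.05 ± 0.043 without LPS (adjusted p = 0.326, approximate 95% interval -0.03 to 0.14). With LPS it was at 0.14 ± 0.043 (adjusted p = 0.00869), or 0.23 with total counts as the scaling. With TMM the call ended when MOPS with LPS replicate 8 (0.11, adjusted p = 0.0685), MOPS with LPS replicate 9 (0.10, adjusted p = 0.0711), or, among the HEPES libraries with LPS, replicate 10 (0.06, adjusted p = 0.277) or 12 (0.09, adjusted p = 0.123), was left out.

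Tlr8 had 24.0, 25.8 and 26.3 CPM per kilobase in MOPS with LPS, against 39.4, 36.5 and 35.6 CPM per kilobase in MOPS. In HEPES with LPS it had 20.04, 20.4 and 18.3 CPM per kilobase, against 25.6, 24.4 and 23.4 CPM per kilobase in HEPES. The MOPS libraries without LPS stood above all others. Tlr8 was higher in MOPS than in HEPES with LPS (0.37 ± 0.052, adjusted p = 3.36e-07, edgeR) and without LPS (0.60 ± 0.048, adjusted p = 6.23e-12). It fell with LPS by 0.55 ± 0.049 in MOPS and by 0.32 ± 0.051 in HEPES on the log2 scale. With total counts as the scaling the log2 changes were -1.06 in MOPS and -0.91 in HEPES. The difference between these changes was -0.23 ± 0.071 (adjusted p = 0.011) and was not called with total counts as the scaling (-0.16, adjusted p = 0.0881).

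Tlr3, the receptor for double-stranded RNA, is ENSMUSG00000031639 on chromosome 8 from 45395665 to 45411080. It had 0.612, 0.627 and 0.709 CPM per kilobase in MOPS with LPS and 1.29, 1.32 and 1.17 in MOPS. In HEPES with LPS it had 0.857, 1.012 and 1.03 CPM per kilobase, against 2.04, 1.99 and 2.08 in HEPES. All 4 groups were separate. Tlr3 fell with LPS by 0.96 ± 0.13 on the log2 scale in MOPS and by 1.08 ± 0.12 in HEPES (adjusted p = 9.88e-08 and 7.50e-10, edgeR), and these changes differed by 0.12 ± 0.18 (adjusted p = 0.64, approximate 95% interval -0.23 to 0.46). With total counts as the scaling the changes with LPS were -1.47 in MOPS and -1.66 in HEPES. Tlr3 was lower in MOPS than in HEPES with LPS (-0.57 ± 0.14, adjusted p = 8.66e-04) and without LPS (-0.69 ± 0.10, adjusted p = 1.94e-06). An antisense gene that overlaps 381 exonic bases of Tlr3 had 0 counts, and no other member overlapped an annotated gene.

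Tlr9, the receptor for unmethylated CpG DNA, is ENSMUSG00000045322 on chromosome 9 from 106222598 to 106226883. It had 28, 46 and 32 counts in MOPS with LPS (0.414, 0.625 and 0.507 CPM per kilobase) and 12, 11 and 20 counts in HEPES with LPS (0.188, 0.168 and 0.320 CPM per kilobase). Without LPS it had 45, 48 and 53 counts in MOPS (0.512, 0.4595 and 0.621 CPM per kilobase) and 68, 53 and 92 counts in HEPES (0.660, 0.532 and 0.975 CPM per kilobase). The HEPES libraries with LPS stood below all others. Tlr9 fell with LPS in HEPES by 1.68 ± 0.29 on the log2 scale (adjusted p = 4.72e-06, edgeR), while its value in MOPS was -0.03 ± 0.25 (adjusted p = 0.928, approximate 95% interval -0.53 to 0.47), or -0.54 with total counts as the scaling (adjusted p = 0.0543). The difference between these changes was 1.65 ± 0.39 (adjusted p = 0.00103). With LPS it was higher in MOPS than in HEPES by 1.20 ± 0.31 (adjusted p = 0.00169). Without LPS the difference was -0.45 ± 0.23 (adjusted p = 0.109) and was called only when HEPES replicate 5 was left out (-0.63, adjusted p = 0.036), among the alternatives tried. Without HEPES replicate 6 it was -0.18.

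B cells also express Tlr9 and other family members, and their markers moved in these comparisons too. Of 10 B cell markers tested, 8 fell with LPS in MOPS (median log2 change -0.75) and all 10 fell in HEPES (median -2.01). Of all tested genes, 34.9% fell in MOPS and 41.2% in HEPES. With LPS, 9 markers were higher and 1 lower in MOPS than in HEPES (median 1.71), beside 26.9% higher and 26.9% lower of all tested genes. Without LPS, 6 were higher and 1 lower in MOPS (median 0.70), beside 24.3% and 25.4% of all tested genes. In that comparison Tlr1 was lower in MOPS (-1.06), and Tlr9 (-0.45) was not called. For the difference between the LPS responses, 8 markers were called above 0 and 0 below (median 1.14). Of all tested genes, 21.9% were above and 17.6% below. Tlr9 (1.65) and Tlr1 (1.27) were called above 0 for that difference. The part of B cell RNA in the results for Tlr9, Tlr1 and the other members was not tested.

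**Figure D3:**
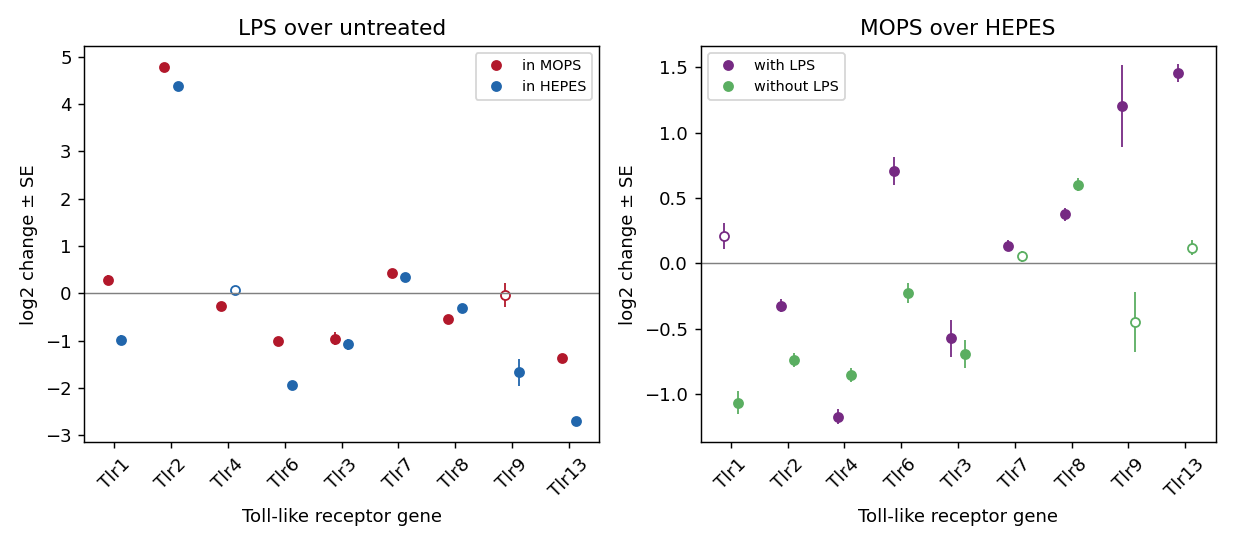
Fitted log2 change ± SE of the 9 tested receptor genes, LPS over untreated on the left (in MOPS and in HEPES) and MOPS over HEPES on the right (with and without LPS); filled points passed an adjusted p under 0.05 (edgeR) and open points did not. Tlr2 lies at 4.79 and 4.38 on the left and Tlr13 at -1.37 and -2.71; with total counts as the scaling the left-hand values of Tlr7, of Tlr4 in HEPES and of Tlr1 in MOPS change sign.

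The comparison of media gave 5 members higher and 3 lower of 9 tested in MOPS with LPS, beside 53.8% of all tested genes called in either direction (26.9% higher and 26.9% lower). Without LPS, 1 was higher and 5 lower, beside 49.7% of all tested genes (24.3% higher and 25.4% lower). The median log2 difference of the members was 0.21 with LPS and -0.45 without LPS, beside 0.00465 and -0.01 for all tested genes. Tlr2, Tlr3 and Tlr4 were lower in MOPS in both states, and Tlr8 was higher in both. Tlr6 was higher in MOPS with LPS and lower without LPS. For the difference between the LPS responses, MOPS less HEPES, 5 of 9 members were called above 0 and 2 below. Beside these, 39.4% of all tested genes were called in either direction (21.9% above and 17.6% below). Those called above 0 were Tlr1, Tlr2, Tlr6, Tlr9 and Tlr13, and those called below were Tlr4 and Tlr8. Tlr3 (0.12) and Tlr7 (0.08) were not called. Total counts as the scaling ended the call of Tlr8 and added that of Tlr7.

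Tlr2 was then set against Tlr4 and the endosomal receptors within each library, as the log2 of the ratio of their counts, which does not depend on library scaling. Per length, the ratio of Tlr2 to Tlr4 was 263 to 276 in MOPS with LPS, 139 to 164 in HEPES with LPS, 7.79 to 8.79 in MOPS and 7.22 to 7.88 in HEPES. It rose with LPS by 5.05 on the log2 scale in MOPS and 4.32 in HEPES, a mean of 4.69. In an exact two-sided permutation test with labels exchanged within each medium (400 arrangements) this gave p = 0.005, the smallest the design allows, and an adjusted p of 0.00667 over the 12 ratios and factors tested. Within a single medium, an exact test of 3 libraries against 3 cannot go below p = 0.1. In MOPS over HEPES the ratio of Tlr2 to Tlr4 was higher by 0.85 with LPS, while without LPS the value was 0.11 (exact permutation p = 0.3). The mean of 0.48 had an exact permutation p = 0.015 (adjusted p = 0.018).

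All 5 endosomal receptors gave the same p = 0.005 for the rise of their Tlr2 ratio with LPS in the exact permutation test (adjusted p = 0.00667). The mean rise was 6.63 on the log2 scale against Tlr13, 5.60 against Tlr3, 5.43 against Tlr9, 5.02 against Tlr8 and 4.21 against Tlr7. Like the ratio to Tlr4, these ratios share Tlr2, whose own rise of 4.79 in MOPS and 4.38 in HEPES exceeded every partner's change. Their equal p-values thus repeat the Tlr2 rise and are not separate results for each receptor. Tlr2 was far above Tlr13 with LPS, whereas without LPS it was below Tlr13 in MOPS and overlapped it in HEPES. Their ratio per length was 34.6 to 43.8 in MOPS with LPS, 123 to 157 in HEPES with LPS, 0.490 to 0.609 in MOPS and 0.948 to 1.04 in HEPES. In MOPS over HEPES, the Tlr2 ratio was lower against Tlr13 (-1.32), Tlr8 (-1.02) and Tlr7 (-0.63), each with an exact permutation p = 0.005 (adjusted p = 0.00667), and against Tlr9 (-0.93, exact permutation p = 0.02, adjusted p = 0.0218). The Tlr9 value joins -1.53 with LPS and -0.33 without LPS (exact permutation p = 0.4). Against Tlr3 it was 0.10 (exact permutation p = 0.27), with -0.05 without LPS and 0.24 with LPS. The medium difference thus had 1 sign against Tlr4 and the opposite sign against Tlr7, Tlr8, Tlr9 and Tlr13.

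**Figure D4:**
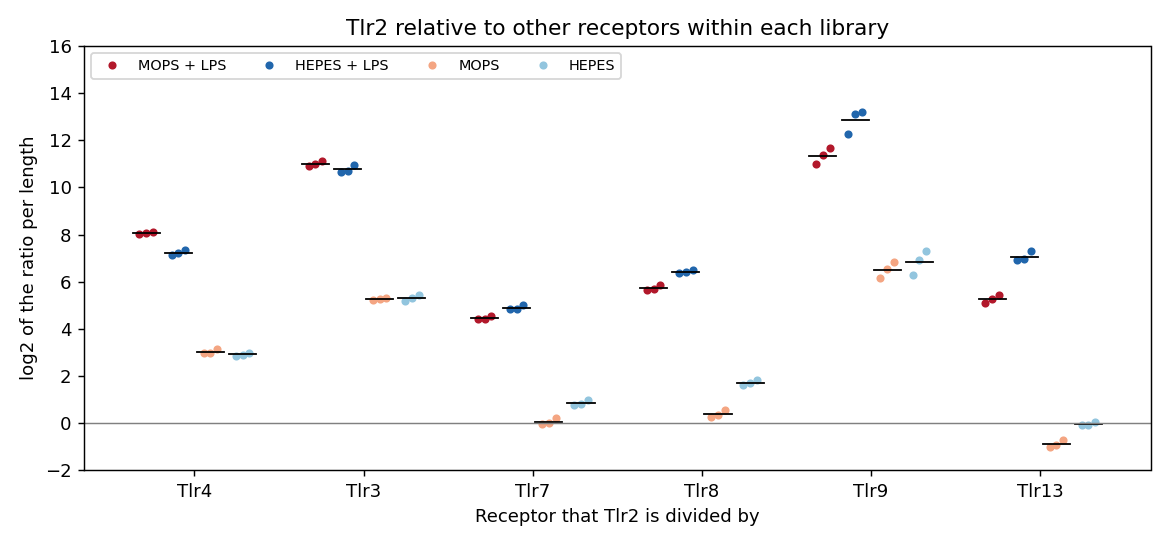
Log2 of the level per length of Tlr2 over that of each other receptor within a library, points drawn from lowest to highest in each of the 4 groups, with bars for means of 3. Against Tlr4 the means are 8.08 in MOPS with LPS, 7.23 in HEPES with LPS, 3.02 in MOPS and 2.91 in HEPES; against Tlr13 they are 5.28 in MOPS with LPS, 7.06 in HEPES with LPS, -0.89 in MOPS and -0.03 in HEPES.

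The genes whose pattern over the 12 libraries lay nearest to a member were found among 7960 protein-coding genes with a mean of at least 10 CPM, by the distance between log2 CPM values centred on their means. For Tlr2 they were Nlrp3 (distance 0.47), Nod2 (0.49) and Slfn2 (0.61), where the median gene was at 7.90. For Tlr4 they were Edil3 (0.44), Tceal8 (0.52) and Ttyh2 (0.52), with a median of 2.13. For Tlr13 they were Nck2 (0.40), Vsir (0.43) and Klhl6 (0.50), with a median of 4.17. The nearest gene was Dusp3 for Tlr3 (0.23), Hip1 for Tlr6 (0.36), Eef1b2 for Tlr7 (0.16), Ubxn7 for Tlr8 (0.30), Frmd4b for Tlr1 (0.58) and Arhgap17 for Tlr9 (0.95).

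Other genes of the pathway were read from 5 lists, and list counts are of genes called at an adjusted p under 0.05 (edgeR). Of all 14506 tested genes, 69.0% were called with LPS in MOPS (34.1% higher and 34.9% lower). In HEPES 76.9% were (35.6% higher and 41.2% lower). Between media, the share was 53.8% with LPS (26.9% higher and 26.9% lower) and 49.7% without LPS (24.3% higher and 25.4% lower). For the difference between the LPS responses it was 39.4% (21.9% above 0 and 17.6% below). With LPS in MOPS, the median log2 change was -0.23 for folding and trafficking, 0.03 for endolysosomal enzymes, 0.20 for accessory receptors, 0.63 for adaptors and proximal kinases and -0.11 for inhibitors. With LPS in HEPES, it was -0.44 for folding and trafficking, -0.22 for endolysosomal enzymes, 0.13 for accessory receptors, 0.90 for adaptors and -0.47 for inhibitors. The median difference between these responses was 0.00497 for folding and trafficking, 0.34 for endolysosomal enzymes, 0.12 for accessory receptors, -0.15 for adaptors and 0.25 for inhibitors, beside 0.06 for all tested genes. Of 15 genes of receptor folding and trafficking, 6 rose and 7 fell with LPS in MOPS, and 6 rose and 8 fell in HEPES, though total counts as the scaling gave 3 higher and 12 lower in MOPS. Between media, MOPS over HEPES, 4 were higher and 4 lower with LPS, and 5 were higher and 5 lower without LPS. The response to LPS, MOPS less HEPES, was called above 0 for 5 and below 0 for 4. Unc93b1, which carries the endosomal receptors from the endoplasmic reticulum, was higher in MOPS than in HEPES with LPS (0.57 ± 0.037, adjusted p = 2.28e-14, edgeR) and without LPS (0.24 ± 0.036, adjusted p = 1.63e-06), and its LPS responses differed by 0.33 ± 0.051 (adjusted p = 5.16e-06). Rab7b, a small GTPase that sends Tlr4 and Tlr9 to lysosomes, fell by 1.27 ± 0.049 on the log2 scale in MOPS and by 2.36 ± 0.052 in HEPES, with a difference of 1.09 ± 0.071. Hsp90b1, the chaperone that folds most family members, had a difference of -0.49 ± 0.051. Lrrc59 rose by 0.97 ± 0.038 in MOPS and 1.70 ± 0.038 in HEPES.

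Of 12 tested proteases and nucleases of the endolysosome, 5 rose and 0 fell with LPS in MOPS, and 2 rose and 8 fell in HEPES (edgeR). With total counts as the scaling, 2 rose and 10 fell in MOPS, and without MOPS with LPS replicate 7 the number that fell there was 1. Set against HEPES, MOPS had 4 higher and 4 lower with LPS, and 1 was higher and 5 lower without LPS (2 higher when HEPES replicate 5 was left out). The response to LPS, MOPS less HEPES, was called above 0 for 7 and below 0 for 0, with 5 not called. For both counts of 0, the count was also 0 at an unadjusted p under 0.05 in edgeR and 0 by DESeq2. Among the 7 were Ctsl and Ctsb, cathepsins that can cleave endosomal receptors, with differences of 0.28 ± 0.053 and 0.28 ± 0.048, the reductase Ifi30 (0.56 ± 0.061) and the nuclease Pld4 (0.49 ± 0.087). In MOPS over HEPES with LPS, Ctsb (-0.41) and Pld4 (-0.47) were lower, while Ctsl (0.41) and Ifi30 (0.64) were higher. Without LPS, Ctsb (-0.69) and Pld4 (-0.95) were lower, Ctsl (0.13) was higher and Ifi30 (0.08) was not called.

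Of 12 accessory receptors, 6 rose and 2 fell with LPS in MOPS, and 6 rose and 3 fell in HEPES, though total counts as the scaling gave 8 lower in MOPS and 2 higher and 8 lower in HEPES. The comparison of MOPS with HEPES gave 4 higher and 5 lower with LPS, and 6 higher and 6 lower without LPS. The difference between the LPS responses was called above 0 for 4 and below 0 for 3. Cd14, which hands LPS to the Tlr4 complex, rose by 2.99 ± 0.056 in MOPS and by 3.75 ± 0.058 in HEPES, a difference of -0.75 ± 0.074 (adjusted p = 8.46e-08, edgeR). Cd44, a hyaluronan receptor, rose by 2.11 ± 0.043 in MOPS and 3.33 ± 0.045 in HEPES. Mertk, a receptor tyrosine kinase for uptake of dying cells, fell by 0.80 ± 0.046 in MOPS and 1.69 ± 0.049 in HEPES. Ly86, the partner of the Tlr4-like protein Cd180, had a difference of 0.44 ± 0.070.

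Of 20 adaptors and proximal kinases, 15 rose and 3 fell with LPS in MOPS, and 15 rose and 4 fell in HEPES. The 3 that fell in MOPS became 5 when HEPES with LPS replicate 10 or 12 was left out. Adaptors compared between MOPS and HEPES numbered 6 higher and 11 lower in MOPS with LPS, and 11 higher and 3 lower without LPS. The difference between the LPS responses was called above 0 for 3 and below 0 for 10. The 3 became 1 when MOPS with LPS replicate 8 or HEPES with LPS replicate 11 or 12 was left out. Myd88, the adaptor of all these receptors but Tlr3, rose by 1.68 ± 0.050 in MOPS and 2.12 ± 0.051 in HEPES, a difference of -0.44 ± 0.071 (adjusted p = 8.77e-06, edgeR). Differences of -0.77 ± 0.085 for Tirap, the bridging adaptor of Tlr2 and Tlr4, -0.79 ± 0.061 for the ubiquitin ligase Traf6 and -0.58 ± 0.058 for its binding partner Tab2 had the same sign.

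Of 14 tested inhibitors of the pathway, 5 rose and 7 fell with LPS in MOPS, and 4 rose and 8 fell in HEPES. Of these inhibitors, 5 were higher and 7 lower in MOPS than in HEPES with LPS, and 4 were higher and 5 lower without LPS. The 5 became 2 when MOPS with LPS replicate 7 or HEPES with LPS replicate 11 or 12 was left out, and 3 when MOPS with LPS replicate 8 or HEPES with LPS replicate 10 was. The difference between the LPS responses was called above 0 for 5 and below 0 for 4. Socs1 and Tnfaip3, inhibitors induced by the pathway itself, had differences of -1.53 ± 0.22 (adjusted p = 1.88e-06, edgeR) and -0.45 ± 0.064 (adjusted p = 1.81e-06). Nlrc3, which restrains Traf6, was lower in MOPS than in HEPES with LPS (-0.89 ± 0.072) and without LPS (-1.75 ± 0.059), and Cd300a, an inhibitory lipid receptor, was higher with LPS (1.26 ± 0.047) and without LPS (0.68 ± 0.044).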

How the data were processed

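RNA-seq counts from 12 libraries were used. Raw counts per gene and library were deposited by the authors, per the file headers, as whole numbers. The FPKM columns were made by the authors, per the file headers, and served as an alternative. The authors' deposited log2 fold changes and adjusted p-values hold other units; in their LPS columns untreated is over LPS. Per the submitters' processing notes, CASAVA 1.8, HISAT2 2.0.5, featureCounts 1.5.0-p3 and mm10 were involved; neither the strand setting nor the annotation release is given in the sources used here. Of the gene IDs, 54409 were found in GENCODE vM21, 98.3% with the same coordinates.

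Counts were fitted in R 4.3.3 with edgeR 4.0.16: filterByExpr left 14506 genes, scaling was by TMM, and 1 mean per group was fitted over all 12 libraries (robust quasi-likelihood, 8 residual degrees of freedom). The standard error is the log2 change over the square root of F, and 95% intervals are approximate. DESeq2 1.42.0, other scalings and filters, and each library left out were alternatives. Ratios were tested by exact permutation (SciPy 1.17.1). No 2 libraries of a group agreed within counting noise (chi-square 2.66 to 6.54 per degree of freedom). The fit and the permutation were tested on simulated data. The named genes were all members, Tlr11 and Tlr12, the 4 genes of each list with the smallest interaction p, and the nearest 3 genes to a member. Members and lists were chosen with earlier results of these data known.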

Additional observations from a re-analysis of the deposited data

Results flagged for a closer look

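The LPS change differed between the media for 7 of the 9 tested members, by the test of the difference itself in edgeR (adjusted p under 0.05), beside 39.4% of all 14506 tested genes. As the log2 change in MOPS minus that in HEPES, the values were 1.65 for Tlr9, 1.34 for Tlr13, 1.27 for Tlr1, 0.93 for Tlr6, 0.41 for Tlr2, -0.23 for Tlr8 and -0.32 for Tlr4. With total counts as the scaling Tlr8 was not called and Tlr7 was. Tlr9 rests on 11 to 92 counts per library. Tlr1 and Tlr6 share a run of 229 bases, which can affect their counts. Groups of 3 libraries are too small to look for a single library that stands apart.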

How the results depend on the processing

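Of 801 values of members under the alternatives tried, 774 kept their direction and side of the threshold, 7 lost and 12 gained the call, and 8 changed sign. All 664 such values looked at for the named list genes kept both. They covered every named list gene only for the difference of LPS responses. For the LPS changes they covered Rab7b, Lrrc59, Cd14, Cd44, Mertk and Myd88, and for the medium differences Unc93b1, Nlrc3 and Cd300a. Other comparisons of the named list genes were not looked at under the alternatives. The named list genes were picked for the smallest interaction p of each list in these data, so this is no check of the lists as a whole. Counts over whole lists did shift, as given for each list. With total counts as the scaling, LPS gave 2084 genes higher and 9506 lower in MOPS and 2502 higher and 9666 lower in HEPES, and 1 member higher in each medium. Its sign changes were Tlr1 (-0.22) and Tlr7 (-0.10) in MOPS and Tlr4 (-0.53) and Tlr7 (-0.25) in HEPES. In the difference of LPS responses 1 member, Tlr4, was called below 0, while Tlr8 (-0.16) stayed below 0 without a call. Total counts also gave other list counts: 6 adaptors lower and 3 inhibitors higher with LPS in MOPS, and 7 adaptors lower with LPS in HEPES. There were 7 adaptors lower in MOPS than in HEPES with LPS. In the difference of responses, 2 trafficking genes were called below 0 and 6 adaptors above 0. Members higher in MOPS without LPS numbered 2 with RLE size factors, with DESeq2, with no filter on low counts and with only the 6 libraries compared, and 1 to 2 with a library left out. Without a filter Tlr4 was at -0.0014 with LPS in HEPES, and Tlr5 was called there (-2.05, adjusted p = 0.00938, edgeR). That call rests on 6 counts in HEPES with LPS against 38 in HEPES, of which replicate 6 gave 21. In the authors' deposited table the adjusted p of Tlr5 there was 0.0655. On leaving out MOPS replicate 3 or MOPS with LPS replicate 7, Tlr9 with LPS in MOPS was at 0.09 and 0.10 (range -0.20 to 0.10 over libraries left out), and without HEPES with LPS replicate 10 the Tlr3 difference was at -0.0094 (range -0.0094 to 0.15). The cause of these shifts was not tested, beyond the scaling itself. The ratios of Tlr2 to Tlr3, Tlr4, Tlr7, Tlr8, Tlr9 and Tlr13 kept their direction and side of the threshold with 5 counts added, with the authors' FPKM and with each library left out. No paired analysis was possible because the groups share no replicate numbers. Depth limits Tlr5, Tlr11 and Tlr12.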
